A study of Mus musculus with 6 samples.

Results

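Blastocysts that lay dormant in the uterus were compared with activated blastocysts across the genes of a mouse expression array. The comparison used 4 of the 6 arrays of the series directly: 2 titled Dor-7g, made from blastocysts dormant in vivo on day 7, and 2 titled D4-act-7g, made from blastocysts activated on day 4. The other 2 arrays, titled DOX-7g and made from blastocysts in which dormancy was induced in vitro with DOX by day 7, entered the fit to share its estimate of the spread, and their values are set beside the others at the end. Every group, the activated one included, came from let7g-transgenic mice, and each array was made from the RNA of 10 blastocysts, so no array shows blastocysts without the transgene. The labels name neither the promoter of the transgene nor whether the arrays of a group were made from different mice, and p-values here measure only the spread between arrays. They name DOX for the DOX-7g group and do not say whether the other groups received it, so the state of the transgene in Dor-7g and D4-act-7g is not known here. Day and dormancy differ together between both groups and cannot be told apart. After probesets with exactly 1 gene symbol were kept, dim genes removed and the brightest probeset taken for each gene, 14020 of 22180 named genes were compared.

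Diapause is a reversible arrest in which the blastocyst stops dividing, lowers its metabolism and waits, without attaching, until the uterus becomes receptive. In mice, nursing or a lack of ovarian estrogen holds the embryo in this state, and an estrogen signal together with LIF and ErbB ligands of the uterus brings it out. Lower mTOR and Myc activity, lower protein synthesis and fewer dividing cells are known features of dormant mouse embryos. The let-7 microRNAs repress growth-promoting transcripts, among them those of Lin28, Hmga2 and Myc genes, by pairing through their seed, the bases 2 to 8 that are shown in capitals below. The transgene carried by every group belongs to the let-7g member, and let-7a is shown because its hairpins were the only ones of the family bright enough to be compared. Both mature sequences were taken from RefSeq (GRCm38.p6), and all 9 of the 5p members found there share the seed GAGGUAG:
mmu-let-7g-5p: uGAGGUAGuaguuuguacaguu
mmu-let-7a-5p: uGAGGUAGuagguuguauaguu

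The array carried 14 probesets for 12 hairpin genes of this family, and their deposited log2 signals lay between 2.06 and 5.67 on the 4 arrays. The Mirlet7g probeset read 3.31 and 3.56 on D4-act-7g replicates 1 and 2 and 3.50 and 3.59 on Dor-7g replicates 1 and 2, so the groups overlapped and all values lay below each array's median. All values below are given in this order, D4-act-7g before Dor-7g and replicate 1 before replicate 2. Over the 14 probesets the groups differed by -0.25 to 0.64, and 10 of them were below the median on all 6 arrays. Probesets for hairpins on such an array need not report the mature microRNA, so these values do not give its level. Among 16 tested transcripts of the let-7 target list none passed the test. Lin28a, an RNA-binding protein that blocks let-7 maturation, read 6.15 and 6.04 against 6.19 and 6.04, and Hmga2, a chromatin protein and let-7 target, 6.002 and 5.80 against 5.95 and 5.59. The list's smallest p belonged to Cdc34, a ubiquitin-conjugating enzyme, with 12.88 and 12.85 against 11.72 and 11.94 (a difference of -1.04 ± 0.18, SE; limma, adjusted p = 0.0839).

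Dor-7g replicate 1 stood apart from the other arrays, so each result below is given for both Dor-7g arrays. Its probeset values had an interquartile range of 2.21 against 2.30 to 2.36 on the other 5 arrays, and its median was 4.87 against 4.62 to 4.67. On it alone, 73 genes lay more than 3 log2 units below all 5 other arrays, against 0 to 3 genes on any other array. These 73 genes were bright elsewhere, with a median level of 9.92 in D4-act-7g and 9.80 on Dor-7g replicate 2 against 5.07 on Dor-7g replicate 1, and none was called. Housekeeping genes were among them. Rplp0, a protein of the ribosomal stalk, read 11.99 and 11.77 against 6.46 and 11.58, Hprt, a purine salvage enzyme, 11.61 and 11.39 against 4.10 and 8.93, and the glutathione transferase gene Gstp1 13.12 and 13.07 against 5.19 and 10.93. Snord47, a small nucleolar RNA, went from 9.47 and 9.78 to 2.89 and 10.40. Fewer genes went the other way on that array, such as Rny1, a Y RNA, with 2.49 and 2.44 against 9.05 and 2.74. Across all genes the 2 Dor-7g arrays differed by a median of 0.36 log2 units, against 0.17 for the D4-act-7g arrays.

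Of 14020 genes, 34 were higher in Dor-7g (0.243%) and 104 lower (0.742%) in limma at an adjusted p under 0.05, which makes 0.984% called in either direction. The falls were of bright genes: their median level was 8.77 in the activated group and 5.70 in the dormant group, while the median gene stood at 5.72 in D4-act-7g. For the genes that rose, the median level was 6.91 in the activated group against 10.82 in the dormant one. Of these, 5 were below the median on both activated arrays and entered the comparison only through day-7 arrays: Aga, Cox8b, Rnu3a, S100a9 and Scarna17. The median rise among called genes was 3.11 log2 units and the median fall -2.46, and the smallest called changes were 1.26 and -1.14. Both Dor-7g arrays lay above both D4-act-7g arrays for 3406 genes (24.3%) and below them for 3012 (21.5%), and by more than 1 log2 unit for 103 (0.735%) and 329 (2.35%). The median change over all genes was 0.06, made of 0.12 on Dor-7g replicate 1 and -0.03 on replicate 2.

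**Figure D1:**
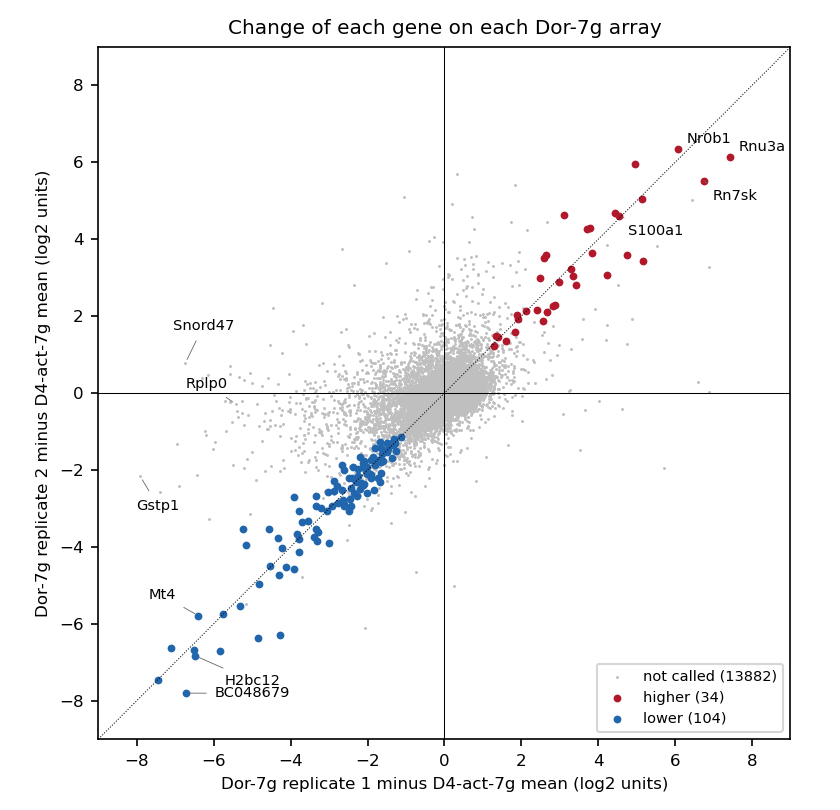
Change of each of the 14020 genes on Dor-7g replicate 1 (horizontal axis) and Dor-7g replicate 2 (vertical axis), each minus the mean of both D4-act-7g arrays, in log2 units; red points are the 34 genes higher, blue points the 104 lower and grey points the genes not called, and the dotted line marks equal change. The called genes, which the test picks for a small spread, lie near the line, while a tail of grey points stretches left where only replicate 1 is low, as for Rplp0, Gstp1 and Snord47.

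The calls depended on which array was left out. Without Dor-7g replicate 1, 110 genes were higher (0.785%) and 155 lower (1.11%), and 112 of the 138 were called again. Without Dor-7g replicate 2, 274 were higher (1.95%) and 898 lower (6.41%), all 138 among them. In both fits the lone Dor-7g array is assumed to vary like the other groups. Leaving out D4-act-7g replicate 1 kept 14 of the 138 calls, leaving out D4-act-7g replicate 2 kept 11, and leaving out DOX-7g replicate 1 or replicate 2 kept 77. The 11 genes called whichever array was left out were Nr0b1, S100a1 and Scarna17, which were higher, and H2bc12, Tsx, Tdpoz2, Pramel33, BC048679, Gm11517, Gm11546 and Gm5745, which were lower.

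Nr0b1, an orphan nuclear receptor of pluripotent cells also known as Dax1, rose more than any other protein-coding gene. It read 5.10 and 6.02 on the activated arrays against 11.64 and 11.90 on the dormant ones, a rise of 6.21 ± 0.39 log2 units or 74.1-fold (limma, adjusted p = 0.00464). The rise lay between 5.75 and 6.67 over the fits that left out 1 array. Ubd, a ubiquitin-like modifier also called FAT10, went from 4.85 and 4.24 to 8.997 and 9.23 (4.57 ± 0.35, adjusted p = 0.00779), dim on both activated arrays and bright on both dormant ones. Rhox6, a homeobox gene of the placental lineage, went from 6.72 and 5.39 to 9.83 and 10.35 (4.04 ± 0.52, adjusted p = 0.0345), and its neighbour in the family Rhox5 from 9.12 and 8.19 to 10.31 and 10.90 without passing (adjusted p = 0.0922). Rhox6 was the only call among 6 tested Rhox genes, whose median was 0.63. Cox8b, the isoform of a cytochrome oxidase subunit found in heart and muscle, differed most between the dormant arrays among the 25 largest rises, with 4.35 and 4.54 against 9.62 and 7.88 (4.30 ± 0.56, adjusted p = 0.0359).

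Other genes of the 25 largest rises follow by name. Cda, the cytidine deaminase of pyrimidine salvage, read 7.39 and 7.05 against 10.93 and 11.48, a 15.8-fold rise. Gchfr, the feedback regulator of the enzyme that starts tetrahydrobiopterin synthesis, read 9.94 and 10.39 against 13.14 and 13.04, a 7.60-fold rise. Aga, a lysosomal enzyme that breaks down glycoproteins, read 4.04 and 4.08 against 7.16 and 8.70, and was below the median on both activated arrays. The groups were well apart in all these genes, and the dormant arrays stood closest together for Gchfr. Abat, which degrades GABA, rose by 3.11 ± 0.31, and its other probeset gave 1.18. Gstm2, a glutathione transferase, rose by 1.96 ± 0.22. Acss1, a mitochondrial acetyl-CoA synthetase, rose by 2.74 ± 0.23 with the brightest probeset, but its other probeset gave -0.17. The remaining rises among the 25 largest were Mlana, Cmtm8, Sapcd1, Stmn2, Sp3os and Abracl, between 2.14 and 3.64 log2 units, together with the S100 genes, small RNAs and Nupr1 described below.

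**Figure D2:**
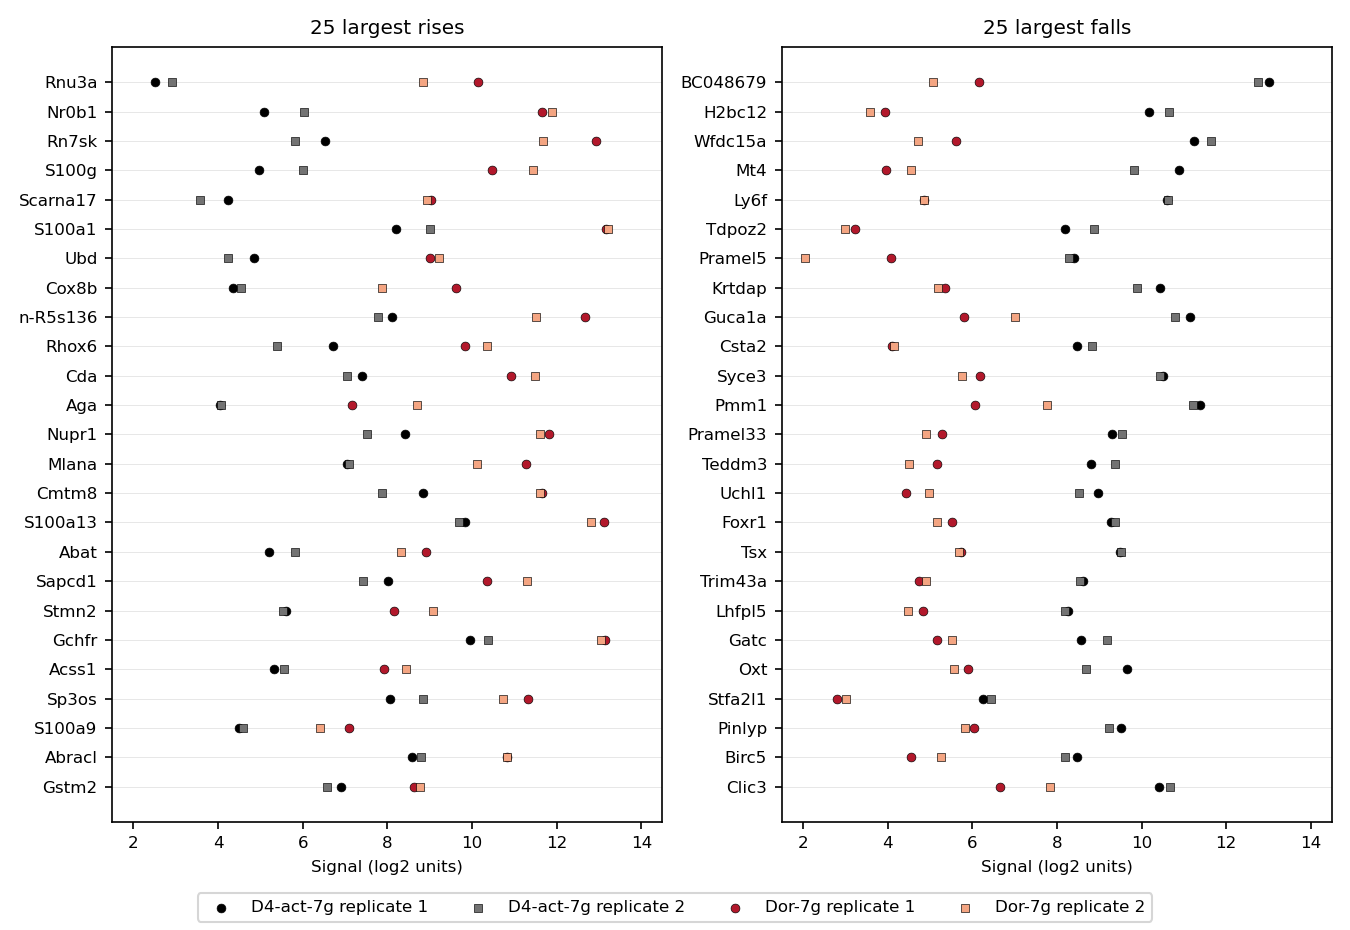
Deposited log2 signal (horizontal axis) of the 25 largest rises (left) and the 25 largest falls (right) among called genes, leaving out predicted genes, microRNAs and snoRNAs; each symbol is 1 array, black and grey for D4-act-7g and red and orange for Dor-7g. In every row both dormant arrays lie on the same side of both activated arrays, as they must for the genes to be drawn, and the dormant arrays coincide most closely for Abracl among the rises and for Ly6f and Tsx among the falls.

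Because Nr0b1 rose most among protein-coding genes, the stretch around its start is shown, from 250 bases before the annotated start to 50 after it, chrX:86191525-86191824 on the plus strand (RefSeq, GRCm38.p6). Capitals mark the only match to the searched motifs, TATAAA at position -32 from the start. Of 32851 such windows in the mouse table, 13.6% hold the TATA box TATAAA on either strand. The same search gave 37.4% for the box named after its letters CCAAT and 35.7% for the GC box GGGCGG. It gave 4.72% for AAGGTCA, a site of orphan nuclear receptors, and 1.74% for the octamer ATTTGCAT.
Nr0b1: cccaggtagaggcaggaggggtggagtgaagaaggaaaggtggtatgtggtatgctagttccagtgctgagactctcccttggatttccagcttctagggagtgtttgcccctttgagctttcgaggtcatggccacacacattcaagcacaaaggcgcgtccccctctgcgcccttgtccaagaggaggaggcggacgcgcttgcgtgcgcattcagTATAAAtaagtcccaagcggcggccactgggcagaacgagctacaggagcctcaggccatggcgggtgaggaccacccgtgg

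Of 15 tested genes of the S100 list, small calcium-binding proteins with EF-hands plus the binding protein gene S100pbp, 4 rose and none fell, where 0.243% of all genes rose. The list's median difference was 0.80 log2 units, against 0.06 over all genes, and 0.54 and 1.08 on Dor-7g replicates 1 and 2. Over all 17 genes of the list on the array, dim ones included, it was 0.46. Both dormant arrays lay above both activated arrays for 10 of the 15, as for 24.3% of all genes. S100a9, S100a4 and S100a8 were below the median on both activated arrays, so they entered the comparison only through day-7 arrays. The median of 0.80 and the 10 of 15 may be raised by this selection. S100g, the vitamin D-regulated calcium carrier calbindin-D9k, went from 4.97 and 6.01 to 10.46 and 11.44, a rise of 5.46 ± 0.60 or 43.9-fold (limma, adjusted p = 0.0229). S100a1, best known from heart muscle, went from 8.21 and 9.02 to 13.16 and 13.22, a rise of 4.58 ± 0.29 or 23.9-fold (adjusted p = 0.00464). S100a13, which takes part in the release of proteins that lack a secretion signal, went from 9.84 and 9.69 to 13.13 and 12.81 (3.20 ± 0.19, adjusted p = 0.00413). In these 3 genes the groups were far apart, and the dormant arrays differed by less than 1 log2 unit. S100a9, which marks neutrophils, rose from a dim level, 4.49 and 4.60 against 7.10 and 6.41 (2.21 ± 0.26, adjusted p = 0.0274). Its partner S100a8 read 3.28 and 3.16 against 2.81 and 7.18, and S100a4 read 4.58 and 4.59 against 5.30 and 9.16, so both were high only on Dor-7g replicate 2. S100a10 and S100a11 were bright in both groups, with differences of 0.24 and 0.46. Without either D4-act-7g array only S100a1 kept its call.

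S100a13 and S100a1 lie head to head on chromosome 3, with starts 105 bases apart, and no other pair of called genes has overlapping windows around its starts. The window of S100a13, chr3:90514185-90514484 on the plus strand (RefSeq, GRCm38.p6), is shown because it holds the stretch between both starts, and that of S100a1, chr3:90514281-90514580 on the minus strand, covers most of the same bases from the other side. None of the 5 motifs was found in either window.
S100a13: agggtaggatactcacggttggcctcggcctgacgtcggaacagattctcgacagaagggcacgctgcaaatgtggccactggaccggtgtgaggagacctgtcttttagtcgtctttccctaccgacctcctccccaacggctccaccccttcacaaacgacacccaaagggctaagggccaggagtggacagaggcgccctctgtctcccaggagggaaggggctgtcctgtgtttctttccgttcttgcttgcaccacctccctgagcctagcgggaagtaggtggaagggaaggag

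Of 16 small structural RNAs on the array 10 were bright enough to be tested. Of these 4 rose and none fell, where 0.243% of all genes rose. Members such as Rnu3a and Scarna17 were below the median on both activated arrays and entered only through the arrays where they were high. The median difference over all 16 was 0.61 log2 units, and the 2.59 over the 10 tested reflects that selection. Rnu3a, the U3 RNA that guides cleavage of the ribosomal RNA precursor, read 2.50 and 2.92 against 10.14 and 8.84, a rise of 6.78 ± 0.63 (limma, adjusted p = 0.0120). Rn7sk, which holds the elongation factor P-TEFb inactive, read 6.53 and 5.82 against 12.92 and 11.68 (6.13 ± 0.49, adjusted p = 0.00886), and its other probeset gave 3.95. Scarna17, a Cajal body RNA, read 4.24 and 3.57 against 9.04 and 8.94 (5.08 ± 0.26, adjusted p = 0.00241). The 5S ribosomal RNA probeset n-R5s136 read 8.11 and 7.77 against 12.68 and 11.52 (4.16 ± 0.41, adjusted p = 0.0154). Scarna17 was even on the dormant arrays, while the other 3 were higher on replicate 1 than on replicate 2 by more than 1 log2 unit. The rest of the list was mixed. The minor spliceosome RNA Rnu12 read 9.85 and 10.05 against 11.62 and 11.10 (adjusted p = 0.0760), Rny1 was high only on Dor-7g replicate 1, and Rpph1 and Scarna8 differed by -0.04 and -0.80. Only Scarna17 kept its call without either D4-act-7g array. A small nucleolar RNA outside the list, Snord42b, fell from 6.62 and 7.61 to 2.90 and 3.09, so small RNAs did not all move one way.

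**Figure D3:**
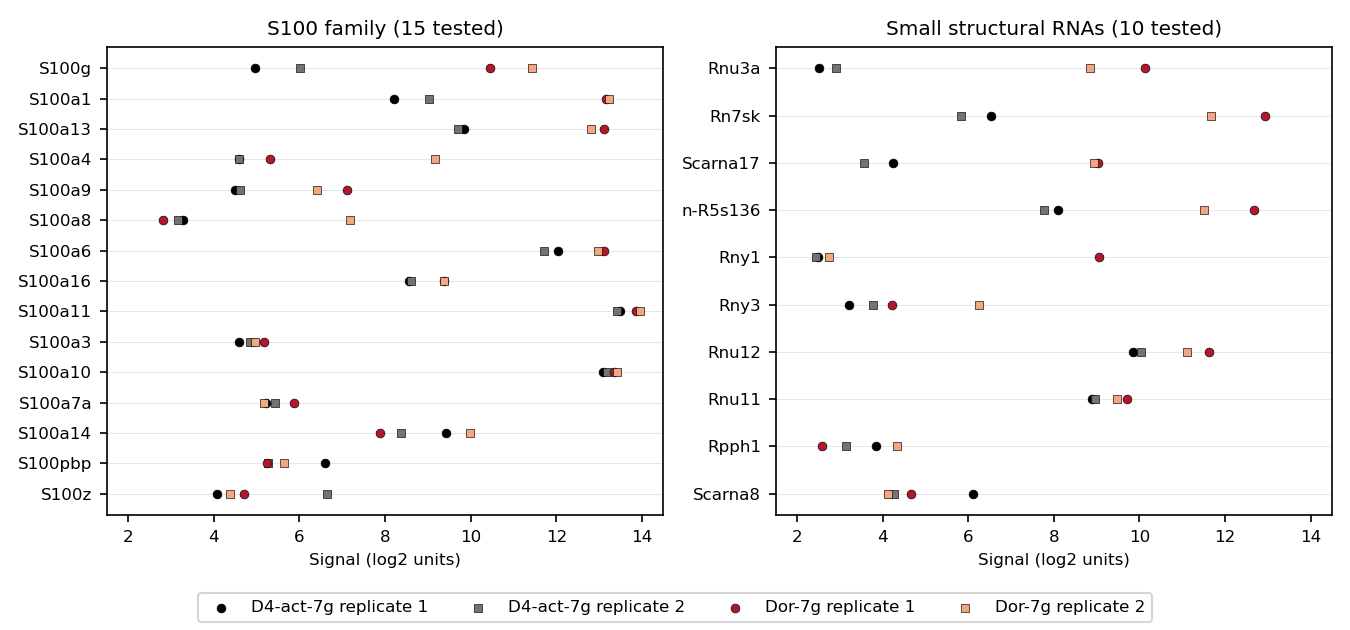
Deposited log2 signal (horizontal axis) of the 15 tested genes of the S100 list (left) and the 10 tested small structural RNAs (right), ordered by their difference; each symbol is 1 array, black and grey for D4-act-7g and red and orange for Dor-7g. The top 3 S100 genes and the top 4 small RNAs separate the groups on both dormant arrays, while S100a4, S100a8 and Rny1 are high on a single dormant array.

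Of the 104 genes that fell, 16 ended below the median of both dormant arrays. BC048679 read 13.01 and 12.76 against 6.15 and 5.08, a fall of -7.27 ± 0.37 (limma, adjusted p = 0.00241). H2bc12, a histone H2B gene of the replication-dependent kind, read 10.18 and 10.66 against 3.94 and 3.59 (-6.66 ± 0.24, adjusted p = 0.000976). Mt4, a metallothionein of squamous epithelia, read 10.89 and 9.82 against 3.96 and 4.56 (-6.09 ± 0.55, adjusted p = 0.0110). H2bc12 and Mt4 lay below the median of both dormant arrays. Ly6f, the only called gene among 13 tested of the Ly6 family of membrane-anchored proteins, was level within each group, with 10.60 and 10.63 against 4.86 and 4.86 (-5.75 ± 0.37). Tsx, an X-linked gene of the region that controls X inactivation, read 9.49 and 9.51 against 5.73 and 5.70 (-3.79 ± 0.16, adjusted p = 0.00221), and its replicates were also close in both groups.

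Pramel33, of a family expressed in germ cells and early embryos, also fell. It read 9.31 and 9.53 against 5.29 and 4.91, and Pramel5 8.41 and 8.28 against 4.07 and 2.05. Tdpoz2, a BTB-domain gene, read 8.19 and 8.88 against 3.23 and 2.99, but its other probeset differed by only -0.82. Syce3, a protein of the synaptonemal complex, read 10.52 and 10.44 against 6.19 and 5.75, and Foxr1, a forkhead factor of germ cells and oocytes, 9.27 and 9.38 against 5.53 and 5.18. The Pramel, Tdpoz, Usp17, Gstm and histone families have near-identical members whose transcripts the probes may not tell apart, so the values of single members are uncertain. The cysteine protease inhibitors Csta2 (-4.51 ± 0.28) and Stfa2l1 (-3.44 ± 0.18), the peptide hormone gene Oxt (-3.45 ± 0.36), the deubiquitinase gene Uchl1 (-4.05 ± 0.27) and the phosphomannomutase gene Pmm1 (-4.38 ± 0.52) fell as well. The other Uchl1 probeset gave 0.32. Others of the 25 largest falls were Wfdc15a, Krtdap, Guca1a, Teddm3, Trim43a, Lhfpl5, Gatc, Pinlyp and Clic3, between -6.28 and -3.30, and the other probeset of Teddm3 gave -0.24.

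The window around the start of H2bc12, chr13:22035571-22035870 on the plus strand (RefSeq, GRCm38.p6), is shown because this gene fell more than any other histone gene. Capitals mark the matches: the octamer typical of histone H2B promoters, ATTTGCAT, at -30, and CCAAT at -132. On the opposite strand CCAAT was found at -160 and -96, printed here as its reverse complement ATTGG. The TATA box was found on that strand at -198 and is printed as TTTATA. Of the 87 genes that fell and have a window, 3 hold the octamer (1.74% of all windows) and 36 hold CCAAT (37.4% of all windows). Of the 18 that rose, none holds the octamer and 3 hold CCAAT.
H2bc12: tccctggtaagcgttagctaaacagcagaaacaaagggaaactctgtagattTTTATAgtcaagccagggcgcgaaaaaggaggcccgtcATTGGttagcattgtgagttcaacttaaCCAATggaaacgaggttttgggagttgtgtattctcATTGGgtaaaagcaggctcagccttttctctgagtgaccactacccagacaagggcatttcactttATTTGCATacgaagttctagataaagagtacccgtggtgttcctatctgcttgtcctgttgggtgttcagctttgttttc

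Among the signals that hold or end diapause, 1 gene in 4 lists passed the test, beside 0.984% of all genes. Of 17 tested LIF and STAT3 genes only Socs1, the feedback inhibitor of cytokine signalling, passed. It fell from 8.42 and 8.52 to 6.37 and 6.12 (-2.23 ± 0.18; limma, adjusted p = 0.00971), and lost its call without either D4-act-7g array. Lifr, the LIF receptor subunit, read 5.07 and 5.10 against 5.32 and 5.79, and Stat3, the transcription factor below it, 6.27 and 6.32 against 6.57 and 6.73. No gene passed among 17 of ErbB receptors and implantation signals, 24 of FGF and ERK signalling and 22 of BMP and Wnt signalling, with medians of 0.05, 0.17 and 0.08. Egfr read 4.95 and 4.76 against 4.74 and 4.87, so the groups overlapped. Erbb4 and Il6st were too dim to be tested. Fos, an immediate early gene of ERK signalling, was higher on both dormant arrays, with 5.29 and 5.12 against 6.15 and 6.08 (0.91 ± 0.19; limma, adjusted p = 0.124). Map2k2, of the same list, was lower on both, with 10.49 and 10.56 against 9.56 and 9.64 (-0.92 ± 0.17, adjusted p = 0.0898).

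The growth lists held 1 called gene each for mTOR and for polyamines, beside 0.984% called over all genes. Of 31 mTOR and amino acid sensing genes Castor1, the arginine sensor that restrains mTORC1, fell from 7.34 and 7.44 to 5.58 and 5.95 (-1.62 ± 0.20; limma, adjusted p = 0.0320), and the list's median was -0.02. Eif4ebp1, a repressor of cap-dependent translation and mTOR target, read 12.81 and 12.84 against 10.97 and 11.80 (adjusted p = 0.113), and Mtor itself 5.65 and 5.91 against 5.69 and 5.53. None of 11 Myc and Max network genes passed. Myc read 7.76 and 7.39 against 7.40 and 7.55 and Mycn 5.57 and 5.38 against 6.27 and 5.78. Of 18 polyamine genes the transporter Atp13a3 fell, from 7.91 and 7.71 to 5.58 and 5.84 (-2.10 ± 0.19, adjusted p = 0.0114), with a list median of -0.28. Odc1, the first enzyme of polyamine synthesis, read 6.51 and 6.68 against 6.56 and 6.12, an overlap of the groups. Without D4-act-7g replicate 1 or 2 neither Castor1 nor Atp13a3 kept its call, and Castor1 also lost it without either DOX-7g array. None of 11 microRNA processing genes passed, with a median of -0.16.

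Most protein synthesis genes lay below 0, with list medians between -0.32 and -0.12. Of 60 cytosolic ribosomal protein genes 4 fell and none rose, where 0.742% of all genes fell. Below 0 lay 45, and the list's median was -0.12 (-0.10 on each dormant array) against 0.06 over all genes. Both dormant arrays lay below both activated ones for 31 of the 60, by more than 1 log2 unit for 9, and above them for 3. Over all genes these shares were 21.5%, 2.35% and 24.3%. Rps29 went from 12.67 and 12.08 to 10.36 and 10.27 (-2.07 ± 0.24; limma, adjusted p = 0.0257), Rpl26 from 9.35 and 9.39 to 7.90 and 7.92 (-1.46 ± 0.16, adjusted p = 0.0229), Rpl34 from 10.93 and 10.43 to 7.65 and 8.10 (-2.80 ± 0.27, adjusted p = 0.0131) and Rps16 from 9.02 and 8.59 to 5.46 and 5.86 (-3.15 ± 0.41, adjusted p = 0.0375). All 4 were low on both dormant arrays, unlike Rpl17, which read 11.34 and 10.48 against 5.69 and 10.08. Ribosomal protein genes have many near-identical pseudogenes, whose share of these signals is not known. Without either D4-act-7g array none of the ribosomal protein genes was called lower. Fewer than 4 were called lower without either DOX-7g array. Among 54 translation factors and tRNA synthetases none passed, while 45 lay below 0 and 32 had both dormant arrays below both activated ones (21.5% of all genes), with a median of -0.32. Eif5, which triggers GTP hydrolysis at the start codon, read 9.73 and 9.80 against 8.71 and 8.09 (adjusted p = 0.0885). Eif4a1, an RNA helicase of translation initiation, went the other way, with 7.27 and 6.44 against 11.38 and 9.66 (adjusted p = 0.0834), and its other probeset gave -0.34. In the ribosome biogenesis list none of 66 passed and the median was -0.18. Brix1, needed for the large subunit, read 8.62 and 8.32 against 5.14 and 6.54 (adjusted p = 0.0885).

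The list of G2/M and mitosis genes had the lowest median of the 46 lists. Of 56 tested G2/M and mitosis genes 4 fell and none rose, where 0.742% of all genes fell, and 52 lay below 0. The median was -0.74 log2 units against 0.06 over all genes, and -0.71 on each dormant array taken alone. Both dormant arrays lay below both activated arrays for 42 of the 56, and by more than 1 log2 unit for 11, where the shares over all genes are 21.5% and 2.35%. Birc5, the survivin subunit of the chromosomal passenger complex, went from 8.47 and 8.19 to 4.54 and 5.27 (-3.42 ± 0.31; limma, adjusted p = 0.0110). Mad2l1, of the spindle checkpoint, went from 8.83 and 8.77 to 5.92 and 6.51 (-2.58 ± 0.28, adjusted p = 0.0225), the kinetochore gene Spc24 from 11.72 and 11.58 to 9.56 and 9.89 (-1.93 ± 0.24, adjusted p = 0.0324) and the kinesin Kif22 from 8.43 and 8.28 to 6.74 and 6.78 (-1.60 ± 0.19, adjusted p = 0.0280). In each the groups were clear of each other. Other members were lower on both dormant arrays without passing, such as Cdk1, the mitotic kinase, with 8.49 and 7.99 against 4.59 and 6.72 (adjusted p = 0.175) and Ccna2, cyclin A, with 8.24 and 8.54 against 6.14 and 6.97 (adjusted p = 0.0813). Ccnb2, cyclin B, read 9.84 and 9.87 against 8.18 and 8.63 (adjusted p = 0.0585). Mki67, the proliferation marker, did not follow, with 5.04 and 5.12 against 5.46 and 4.98. Mastl, the Greatwall kinase that drives mitotic entry, and Ska1, a kinetochore protein, fell outside the list by -1.39 ± 0.18 and -1.98 ± 0.27, and were picked out after their values were seen.

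**Figure D4:**
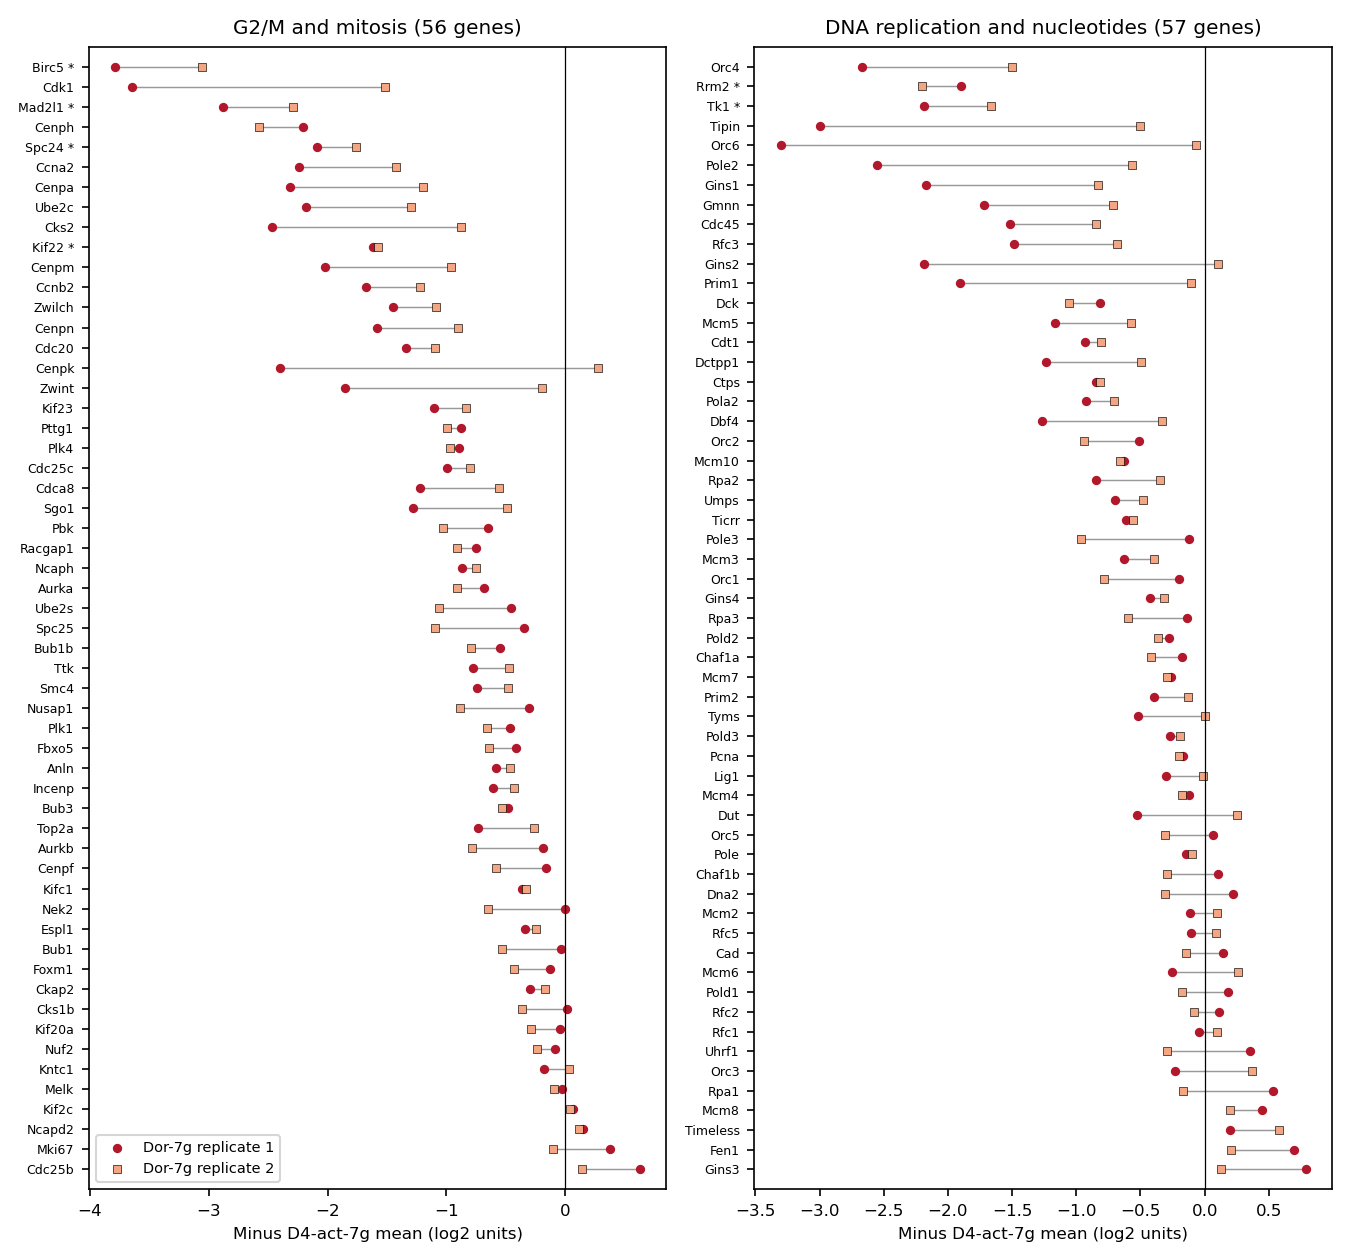
Difference of each Dor-7g array from the mean of both D4-act-7g arrays (horizontal axis, log2 units) for the 56 tested G2/M and mitosis genes (left) and the 57 tested DNA replication and nucleotide genes (right), ordered by the mean difference; red circles are replicate 1, orange squares replicate 2, and an asterisk marks a called gene. Most symbols of both dormant arrays lie left of 0 on the left panel, and the widest gaps between the arrays are those where replicate 1 is lower.

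DNA replication genes were lower to a smaller degree. Of 57 tested, 2 fell and none rose, where 0.742% of all genes fell. Below 0 lay 45, and the median was -0.37 (-0.39 and -0.31 on Dor-7g replicates 1 and 2). Rrm2, the ribonucleotide reductase subunit that limits the supply of deoxynucleotides, went from 8.10 and 8.04 to 6.17 and 5.87 (-2.05 ± 0.22; limma, adjusted p = 0.0223), and its other probeset gave -1.65. Tk1, the thymidine kinase of dividing cells, went from 9.44 and 9.70 to 7.38 and 7.90 (-1.93 ± 0.24, adjusted p = 0.0302). Pcna, the sliding clamp, read 9.84 and 9.97 against 9.74 and 9.71, and Mcm2, of the replicative helicase, 5.96 and 5.96 against 5.85 and 6.05. Pcna and Mcm2 were thus nearly level, but they do not stand for the list. Both dormant arrays lay below both activated ones for 35 of the 57 and above them for 4. Over all genes these shares were 21.5% and 24.3%. The 2 genes that passed both serve nucleotide supply. In both cell division lists no gene kept its call without either D4-act-7g array, and fewer genes were called lower without either DOX-7g array. In these bulk RNA samples fewer cells in division and less RNA per cell cannot be told apart. None of 13 G1 cyclins and kinases passed, with Ccne1, cyclin E, at 6.73 and 6.92 against 6.01 and 5.92 (adjusted p = 0.108). None of 20 Cdk inhibitors, p53 targets and quiescence genes passed. Cdkn1a, the inhibitor p21, read 8.77 and 8.62 against 7.43 and 7.99, lower on both dormant arrays (-0.98 ± 0.24, adjusted p = 0.154), and Cdkn1b was too dim to be tested.

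In the chromatin lists H2bc12 was the only called gene. Of 16 tested replication-dependent histone genes the others spread to both sides, and the median was -0.06 (-0.21 and 0.15 on Dor-7g replicates 1 and 2). H2ac10, a histone H2A gene, read 11.73 and 11.88 against 10.63 and 10.41 (-1.29 ± 0.22; limma, adjusted p = 0.0774). None passed among 16 histone variants and chaperones, 14 DNA methylation and Tet genes and 21 Polycomb and histone modifiers, with medians of -0.17, -0.07 and -0.02. The histone chaperone Asf1b, which works at replication forks, read 6.82 and 7.41 against 5.72 and 5.41 (adjusted p = 0.0843), and Ezh2, the Polycomb methyltransferase, 8.30 and 8.38 against 7.40 and 7.52 (adjusted p = 0.0981). Both were lower on both dormant arrays.

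Energy metabolism lists had small medians. None of 17 glycolysis, 23 TCA cycle, 24 fatty acid oxidation and 17 cholesterol genes passed, and the medians were -0.03, -0.11, 0.07 and 0.02. Of 70 respiratory chain genes only Cox8b rose, and the median was -0.02. Cox8a, the common isoform of the same subunit, read 13.56 and 13.60 against 13.52 and 13.67. Acads, the short-chain acyl-CoA dehydrogenase, read 8.33 and 7.98 against 6.71 and 6.603 (-1.50 ± 0.23; limma, adjusted p = 0.0584), and Cs, citrate synthase, 8.43 and 8.52 against 7.70 and 7.89 (adjusted p = 0.177). Both were lower on both dormant arrays and did not pass. Of 70 respiratory chain genes, both dormant arrays lay below both activated ones for 27 and above them for 15. These counts were 8 and 4 for the TCA cycle, 8 and 7 for fatty acid oxidation and 5 and 2 for glycolysis. Over all genes the shares were 21.5% below and 24.3% above. Apart from Cox8b no gene of these lists passed, so the counts do not show that single members differed.

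In the stress lists, Nupr1, a small chromatin protein induced by many stresses, was the only one of 24 integrated stress response genes that passed. It rose from 8.42 and 7.52 to 11.81 and 11.60 (3.74 ± 0.45; limma, adjusted p = 0.0286), and not in the fit without Dor-7g replicate 1 or without either D4-act-7g array. Atf4, the central transcription factor of that response, read 10.17 and 10.13 against 10.27 and 10.20, and Asns, one of its targets, 6.27 and 6.22 against 6.85 and 7.36. Of 25 glutathione and redox genes Gstm2 rose and Gclm, the regulatory subunit of the first enzyme of glutathione synthesis, fell from 8.49 and 8.63 to 6.43 and 6.63 (-2.03 ± 0.28; limma, adjusted p = 0.0471). Both dormant arrays lay below both activated ones for 13 of the 25 and above them for 3. Over all genes these shares were 21.5% and 24.3%. Of 5 metallothionein genes only Mt4 passed. Mt1 and Mt2, the common metal-binding forms, were at 12.88 and 13.03 against 12.996 and 13.06 and at 13.70 and 13.77 against 13.89 and 13.90. None of 16 heat shock genes passed, although the inducible chaperone Hspa1b read 8.48 and 9.18 against 5.71 and 6.98 (adjusted p = 0.114). None passed among 38 autophagy and lysosome genes and 14 Bcl2 family genes. Atg14, which starts autophagosome formation, read 5.71 and 5.51 against 4.60 and 4.54 (adjusted p = 0.0785), and Bok, a pro-apoptotic member, 9.30 and 9.27 against 8.17 and 7.65 (adjusted p = 0.0778).

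Most blastocyst lineage markers lay above the median on all 4 arrays: 20 of 29 epiblast genes, 25 of 31 trophectoderm genes and 19 of 27 primitive endoderm genes. The same held for 12 of 16 uterine stroma genes, so this count does not set blastocyst markers apart. Krt18, a keratin of the trophectoderm, read 12.87 and 12.81 against 13.05 and 13.28, and Krt8 10.59 and 10.77 against 9.80 and 10.93. The naive pluripotency list had 1 rise, Nr0b1, and 2 falls among 26 tested genes, with a median of -0.15. Of all genes 0.243% rose and 0.742% fell. Dppa2, a DNA-binding protein of early embryos and germ cells, fell from 8.07 and 7.84 to 4.91 and 4.88 (-3.06 ± 0.20; limma, adjusted p = 0.00475), and Dppa3, the maternal-effect gene also called Stella, from 12.92 and 12.96 to 10.63 and 10.62 (-2.31 ± 0.20, adjusted p = 0.0109). Both lost their calls without either D4-act-7g array. The core factors stayed close, with Pou5f1 at 6.11 and 6.04 against 6.13 and 5.86 and Nanog at 6.12 and 5.68 against 5.82 and 5.54. Sox2 was too dim to be tested. The members that passed thus went in opposite directions, while the rest of the list spread around 0.

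Of 28 tested trophectoderm genes only Rhox6 passed, and the median was 0.27. Cdx2, which specifies the lineage, read 6.604 and 6.72 against 7.48 and 6.43, high on Dor-7g replicate 1 alone. None of 24 primitive endoderm genes passed, while 15 of them were higher on both dormant arrays than on both activated ones (24.3% of all genes), and the median was 0.33. Sparc, a matrix glycoprotein, came nearest with 7.79 and 7.63 against 9.001 and 9.04 (1.31 ± 0.19; limma, adjusted p = 0.0545), and Gata6, which specifies that lineage, read 6.80 and 7.19 against 6.59 and 7.10. None of 19 blastocoel pump and junction genes and 15 imprinted genes passed. Of 15 tested 2-cell-like transcripts Tdpoz2 and Usp17lc fell, where 0.742% of all genes fell. Usp17lc did so from an already dim level, 4.23 and 4.79 against 2.87 and 2.73 (-1.71 ± 0.23; limma, adjusted p = 0.0432). The oocyte and maternal list had no call among 15 tested genes, with Khdc3, of the subcortical maternal complex, at 8.86 and 8.73 against 7.44 and 7.28 (adjusted p = 0.0538).

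Markers of maternal cells were measured as well. No uterine gene passed among 13 tested for the epithelium and 13 for the stroma, with medians of 0.42 and 0.25. As drawn up, the epithelial list shares Klf5, Foxa2, Cldn10 and Aqp8 with the blastocyst lists, so it does not mark maternal cells alone. Both dormant arrays lay above both activated ones for 8 and 7 of these, as for 24.3% of all genes. Muc1, the mucin of the uterine lining, read 4.91 and 4.65 against 5.74 and 5.79 (0.99 ± 0.19; limma, adjusted p = 0.0981), and Des, desmin, 5.00 and 4.72 against 5.80 and 6.04 (adjusted p = 0.199). Over the whole epithelial list of 19 genes the summed log2 level was 109 and 110 on the activated arrays against 117 and 116 on the dormant ones, and over the 16 stromal genes 82.2 and 82.3 against 88.9 and 91.9. Such rises were not particular to maternal lists. The trophectoderm sum was 211 and 210 against 218 and 223, and that of primitive endoderm 159 and 157 against 165 and 164. Epiblast genes gave 196 and 194 against 187 and 196. These sums were not corrected for the higher median of Dor-7g replicate 1. Of the epithelial genes 9 lay above the median on all 4 arrays and 7 below it, and of the stromal genes 12 above and 1, Hoxa10, below. The 7 epithelial genes below it on all 4 arrays were Pgr, Calb1, Spink1, Prss28, Prss29, Sprr2f and Pax8. For blood and immune cells S100a9 was the only call among 13 tested, and the summed level of 16 genes was 79.5 and 83.1 against 82.7 and 87.8. Of these 16 genes 7 lay above the median on all 4 arrays, and 4 below it, Ptprc, Adgre1, Ly6g and Pecam1. The part of maternal RNA in the S100a9 difference, or in that of any other gene, was not tested.

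**Figure D5:**
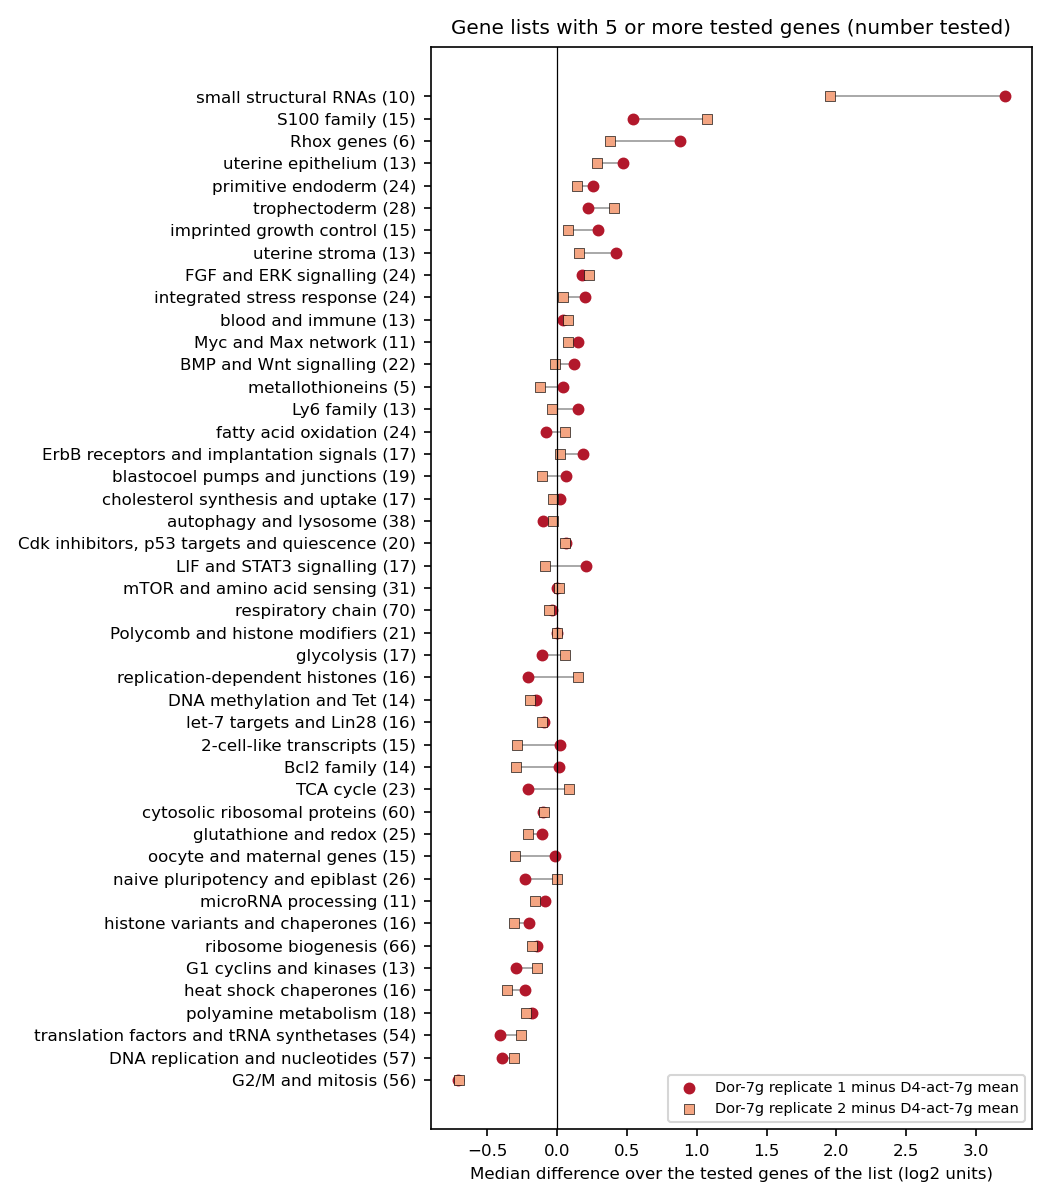
Median difference from the D4-act-7g mean over the tested genes of each list with at least 5 of them (horizontal axis, log2 units), on Dor-7g replicate 1 (red circles) and replicate 2 (orange squares), with the number of tested genes in parentheses; dim members are left out, which raises the small structural RNAs. Small structural RNAs lie farthest right and G2/M genes farthest left on both arrays, with S100 genes next on the right on replicate 2 and Rhox genes on replicate 1, while lists such as replication-dependent histones and the TCA cycle lie on opposite sides of 0.

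DOX-7g is set beside these values only for orientation, since both differences use the same D4-act-7g arrays. S100g stood at 9.93 and 11.31 in DOX-7g, S100a1 at 11.67 and 11.60, Rn7sk at 12.85 and 13.48 and Scarna17 at 9.67 and 9.82, all nearer to Dor-7g than to D4-act-7g. Nr0b1 read 8.02 and 7.26 there, between both groups, and Ubd 6.25 and 5.42. Acss1, at 5.48 and 5.33, and Cox8b, at 4.26 and 4.76, were at the level of D4-act-7g. Of the falls, H2bc12 read 9.69 and 9.82, Ly6f 8.36 and 9.49, Tsx 10.44 and 10.32 and Pramel33 9.18 and 9.25 in DOX-7g, whereas Birc5 read 6.37 and 5.94, Dppa2 5.61 and 5.96 and Lhfpl5 4.13 and 4.22. Usp17lc read 12.52 and 12.56 in DOX-7g, beside 4.23 and 4.79 in D4-act-7g and 2.87 and 2.73 in Dor-7g.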

How the data were processed

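The authors deposited 1 log2 value per probeset for 41345 probesets on 6 Mouse Gene ST arrays. Partek 6.6 and RMA, which corrects background, normalizes and summarizes probes, were used per the submitters' processing notes, without settings. RNA was released by heating 10 blastocysts in water and biotin-labelled, per the labels' protocols. Groups come from sample titles. Of the probesets 23521 had 1 symbol, 1814 several and 16010 none here; symbols were updated by Entrez identifier through RefSeq (GRCm38.p6; 193 not matched). For the array, the genome build was not given in the sources used. Genes needed 2 of 6 arrays at or above the array's median. A single model in limma 3.58.1 (under R 4.3.3) held all 6 arrays, with a mean for each group and plain eBayes (3 residual and 2.81 prior degrees of freedom), and p-values were adjusted by Benjamini-Hochberg with a threshold of 0.05. Tested on simulated data of 14020 genes, this recovered 16%, 92%, 96% and 100% of changes of 1, 2, 3 and 4 log2 units, with 20 unchanged genes called. False calls thus made up a larger share of the simulated calls than the threshold of 0.05. Both simulated arrays of a group had the same spread, so genes low on Dor-7g replicate 1 alone were not imitated. The 46 gene lists, the comparison and the tests were chosen with earlier results of these data known. Named genes are the 25 largest rises and 25 largest falls without predicted genes, microRNAs, snoRNAs and olfactory or vomeronasal receptors, called members of each list or otherwise its 2 smallest p, genes called whichever array was left out, 19 fixed genes and the 10 whose Dor-7g arrays lie farthest apart. Other members given as examples were chosen after their values were seen. Alternatives covered normalization, filters, variance model, array weights, probesets, a replicate block and leaving out arrays.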

Additional observations from a re-analysis of the deposited data

How the results depend on the processing

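Counts of 34 higher and 104 lower genes stayed within 1.5 times under a repeated quantile normalization, median centring, both other filters, eBayes with trend or robust options and the mean over probesets. Higher counts there lay between 27 and 46, and lower counts between 98 and 128. They were 21 and 58 with array weights, 19 and 63 with a replicate block, and 17 and 69 with the 4 arrays alone. Deviations of same-numbered arrays correlated at -0.01, -0.02 and -0.14 between groups, so no pairing by replicate number was seen. So few arrays cannot settle whether they were paired, and the labels do not say. Leaving out 1 array gave 3 to 274 higher and 8 to 898 lower. Median centring moved the median over all genes from 0.06 to -0.07, which by construction turns the sign of list medians inside that shift, such as BMP and Wnt signalling (0.08, then -0.04), while G2/M genes (-0.72 and -0.87 under both scalings) and S100 genes (0.99 and 0.67) kept theirs. Among the named genes 1700094D03Rik reversed, from -1.12 to 2.22 without Dor-7g replicate 1, and was -4.45 without replicate 2. Fits with a lone array of a group assume that it varies like the other groups. The cause of these changes was not tested. No detection calls were used, so a fold against a gene below the median may be too small.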

Other observations

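Probesets outside the named genes also differed between dormant and activated blastocysts. When every bright probeset was fitted, 14 of 1159 probesets with several gene symbols were higher in Dor-7g and 15 lower (2.50%; limma, adjusted p under 0.05), against 27 and 76 of 14740 with 1 symbol (0.699%). Of 6665 probesets without a symbol here, 23 were higher and 35 lower (0.870%). Rises thus made up 48.3%, 26.2% and 39.7% of the calls for several, 1 and no symbol.

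The genes whose Dor-7g arrays lay farthest apart were not called. Rasl2-9 read 3.74 and 6.88 in D4-act-7g and 11.03 and 3.35 in Dor-7g, and Snora30 3.67 and 2.98 against 10.22 and 3.35. Fthl17e read 11.71 and 9.01 against 4.06 and 10.74, Ccpg1os 10.39 and 10.22 against 4.17 and 10.78, and Snord72 8.18 and 8.18 against 2.40 and 9.89. Klk1 read 8.13 and 3.13 against 2.96 and 9.37, so its D4-act-7g arrays differed as well.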
